A study of Homo sapiens with 10 samples.

Results

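Oct4med BCCs were compared with Oct4low BCCs, the breast cancer cells with middle and with the lowest fluorescence of 1 reporter line, over 25727 probe sets of Affymetrix U133 Plus 2.0 arrays. These are all probe sets of the deposited table but its 23 manufacturer's controls, out of 25750. No test between these subsets chose them, but by the paper's methods the authors had left out probe sets near background and those with little variation over the arrays. A difference between the subsets is part of that variation and could help a probe set to be kept. All 25750 lay at least 1.2-fold from their own median in 1 array or more, and 11556 of them in 2 arrays or more. Every share below is thus a share of probe sets that varied in at least 1 array. Every cell came from MDA-MB-231, an established human line of basal-like, triple-negative breast cancer that grew out of a metastasis. The line had been transfected with pEGFP1-Oct3/4, in which the Oct4A promoter drives GFP, and stable transfectants had been selected with neomycin, in all subsets alike. The sort on GFP gave the Oct4low BCCs (4 arrays, the lowest 5% of the cells by the labels, a larger share by the paper's results text), the Oct4hi BCCs (4 arrays, the highest 5%) and the Oct4med BCCs (2 arrays, taken between these gates). The share of cells in the Oct4med gate is stated in the paper's results text and not in the labels. GFP reports the activity of a promoter and not the Oct4 protein, and the Oct4 transcript itself is not analysed here. The labels name no further agent, and do not say whether the transfectants came from 1 clone.

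Each array was hybridized with material from 100 ng of total RNA, and a level below is a log2 RMA intensity. A change is the mean of the 2 Oct4med arrays minus the mean of the 4 Oct4low arrays on the log2 scale, so that 1 stands for 2-fold. Tested were the 13872 probe sets at or above the median of their array in at least 2 of the 10 arrays, and the other 11855 were left out as dim. A gene stands for its brightest tested probe set, which gave 7639 genes, and it passed where limma's moderated test, two-sided and fitted to all 10 arrays, had an adjusted p under 0.05. Intensities of different probe sets cannot be compared with each other. Since array signal is a mean over sorted cells, fewer cells that express a gene and less RNA per cell cannot be told apart.

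Several of the gene groups below are known for fast turnover. Immediate-early genes are transcribed within minutes of a growth factor or stress signal, and their mRNAs carry elements that make them short-lived. ID proteins bind basic helix-loop-helix factors and keep them off DNA, and their genes are classic targets of BMP and TGFβ signaling. Clustered histone genes are transcribed in S phase. Many promoters of their H2A and H2B members hold an octamer, the sequence which POU domain proteins such as Oct1 and Oct4 recognize. In breast cancer cells, Oct4 is studied as a factor of stem-like cells, and SNAI2 and the ID genes as regulators of mesenchymal and self-renewing states.

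The arrays of a subset were close to each other, and the subsets were apart. Pearson's r over the tested probe sets was 0.990 to 0.992 between Oct4low arrays, 0.988 between the Oct4med arrays and 0.957 to 0.979 between an Oct4med and an Oct4low array. The median SD between replicates was 0.12 in each of these subsets. Markers of the line were high, with CD44, a hyaluronan receptor, at 11.22 ± 0.05 (SD, n = 4) in Oct4low and 11.12 ± 0.01 (n = 2) in Oct4med BCCs, and CAV1, the caveolae protein, at 12.40 ± 0.03 and 12.26 ± 0.01. Neither passed the test on its brightest probe set, but 3 dimmer tested probe sets of CD44 fell past it (changes -1.89, -0.84 and -1.47), and the fourth did not pass (-0.22). PLAU, urokinase, the third marker of the line tested, rose by 0.29, a call lost without any of 5 of the 6 arrays (all but Oct4low replicate 1). Of the lists of other cell types, 3 of 6 tested luminal, 1 of 4 stromal and 1 of 3 leukocyte markers were lower in Oct4med BCCs and 1 of 2 erythroid markers was higher. These were TFF1, a secreted trefoil protein (6.62 to 5.30, change -1.32), the luminal factors GATA3 (-0.38) and XBP1 (-0.31), COL1A1, a fibroblast collagen (-0.42), CD14, a monocyte receptor (-0.50), and HBE1, embryonic globin (0.68), and the part of other cells in the results was not tested. The calls of GATA3 (changes -0.31 and -0.44) and COL1A1 (-0.37 and -0.47) were lost without either Oct4med array. GATA3 was also lost without Oct4low replicate 1 or 2, and COL1A1 without Oct4low replicate 2. The call of XBP1 was lost without Oct4med replicate 1 (-0.20), without Oct4low replicate 1, 2 or 3, and without any single Oct4hi array. That of CD14 was lost without Oct4med replicate 2 (-0.26) and without any single Oct4low array. TFF1 and HBE1 kept their calls without any single array. The defining estrogen receptor ESR1 was at 6.08 and 6.18 (change 0.11), and the T-cell marker CD3D at 5.38 and 5.51 (0.12), and neither passed, where the array medians ran from 5.06 to 5.14. Without Oct4med replicate 1, or Oct4low replicate 1 or 2, 1 of the luminal markers was lower.

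In Oct4med BCCs, far more probe sets were lower than higher. Of the 13872 tested, 2145 (15.5%) were lower and 720 (5.19%) higher than in Oct4low BCCs, which is 20.7% in all. By over 2-fold, 396 (2.85%) were lower and 13 (0.0937%) higher. By gene, 896 of 7639 (11.7%) were lower and 434 (5.68%) higher, or 17.4% together, and by over 2-fold 102 (1.34%) were lower and 6 (0.0785%) higher. The median change was 0.03 over all genes, and the shares of 11.7% lower and 5.68% higher are the background of each list below. Both Oct4med arrays lay on one side of all 4 Oct4low arrays in 38.1% of the genes tested (2913), passing or not, and in 1324 of the 1330 genes that passed. Higher probe sets were 25.1% of the calls, but 43.4% when the values were quantile normalized again (1385 higher, 1809 lower), so that the split by direction rests in part on the scaling. Without Oct4med replicate 1, 498 probe sets were higher and 1024 lower, and without replicate 2, 374 and 1774.

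**Figure D1:**
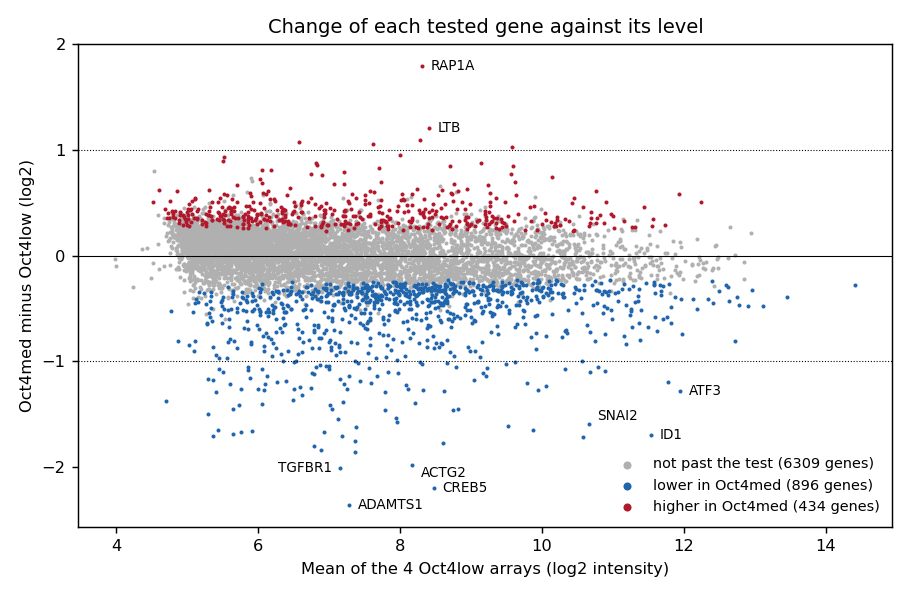
Change from Oct4low to Oct4med BCCs (vertical, log2) of each of the 7639 tested genes against its mean level in the 4 Oct4low arrays (horizontal, log2 intensity). Blue points are the 896 genes that were lower and red points the 434 that were higher at an adjusted p under 0.05 (limma), grey points passed no test, and dotted lines mark 2-fold; large changes lie almost all below 0, with RAP1A (1.79) and LTB (1.21) as the largest rises.

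Genes of the early response were lower in Oct4med BCCs as a group. Of 37 genes listed, 26 were tested, and 21 of these fell and none rose, against 11.7% of all genes that fell. Their median change was -0.50, and all 26 estimates were below 0. The list joins immediate-early genes and genes that respond to the handling of cells. Like the other lists, it was written with earlier results of these data known, so that its share is no independent evidence. ATF3, a stress-induced factor of the CREB family, was at 11.93, 11.90, 12.03 and 11.95 in the Oct4low arrays and at 10.73 and 10.61 in the Oct4med arrays (change -1.28, adjusted p = 1.40e-06). RHOB, an early-response gene for a small GTPase of endosomes, was between 9.92 and 9.97 in the Oct4low arrays and at 8.60 and 8.74 in the Oct4med arrays (change -1.27, adjusted p = 1.04e-06). Both genes had Oct4low arrays within 0.06 (SD) of each other and no overlap with the Oct4med arrays.

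KLF2, a Krüppel-like factor of quiescence (-1.11), NR4A2, an orphan nuclear receptor (-1.05), FOSB, a partner of JUN in AP-1 (-0.99), and ZFP36, a protein that targets AU-rich mRNAs for decay (-0.83), fell with them. The oncogene MYC fell less, from 12.64 ± 0.07 to 12.21 ± 0.01 (change -0.43, adjusted p = 0.00379). The founding members of the class did not pass: EGR1 changed by -0.20 (95% interval -0.41 to 0.02) and JUN by -0.15 (-0.44 to 0.14), with 1 Oct4med array of JUN at 9.82 and the other at 10.28. DUSP1, the phosphatase most quickly induced by stress kinases, was at 7.22 and 7.18. The group was therefore uneven, with the largest falls outside the FOS and JUN families apart from FOSB. Compared with Oct4hi BCCs, Oct4med BCCs were also lower in ATF3 (-0.90, adjusted p = 1.89e-05) and RHOB (-1.06), while NR4A2 was at 6.12 in Oct4hi BCCs, where the difference of -0.17 did not pass.

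**Figure D2:**
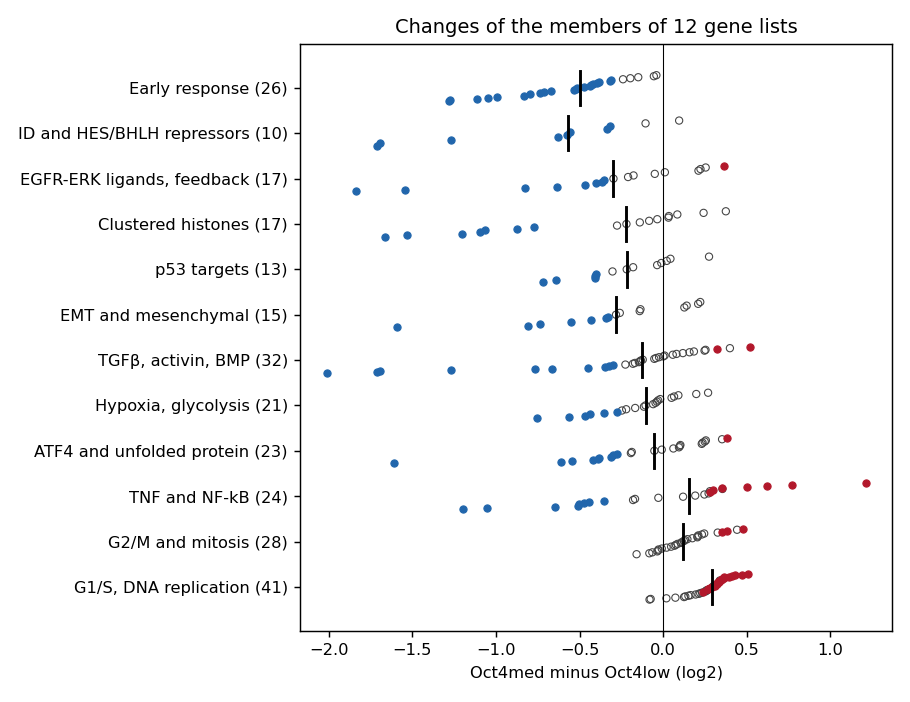
Change from Oct4low to Oct4med BCCs (horizontal, log2) of each tested member of 12 gene lists (vertical, number tested in parentheses). Blue points were lower and red points higher at an adjusted p under 0.05 (limma), open points passed no test, and black bars are the medians, which run from -0.57 for ID proteins and related repressors to 0.29 for G1/S genes.

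Promoters of a few early-response genes hold a cAMP response element, and those of MAFF and PPP1R15A are shown because ATF3 and other CREB-family factors recognize it. The motif TGACGTCA, which reads the same on both strands, was in 3 of the 14 fallen members with a promoter in the RefSeq table (MAFF, PPP1R15A and JUND) and in 1.98% of all 27305 promoters of the same 300 bases. The bases printed lie upstream of the start of transcription in GRCh38.p14, on the strand of the gene, with the element in capitals.
MAFF, chr22:38201910-38201977, plus strand: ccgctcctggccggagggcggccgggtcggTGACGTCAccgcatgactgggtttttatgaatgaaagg
PPP1R15A, chr19:48872333-48872400, plus strand: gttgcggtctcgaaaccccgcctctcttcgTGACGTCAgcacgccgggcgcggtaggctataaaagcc
MAFF, a small MAF factor, fell from 13.11 to 12.63, and PPP1R15A, which restores translation after stress, from 10.36 to 9.62. The promoter of DUSP1 holds the element too, and DUSP1 did not pass, so that the match and the fall did not go together in every member.

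Kinases, ligands and feedback genes of the EGFR-ERK pathway fell in part. Of 36 genes listed, 17 were tested, 8 fell and 1 rose, with a median of -0.30. MAP3K8, a kinase that activates MEK downstream of inflammatory signals, was at 6.82, 6.95, 6.81 and 6.98 in the Oct4low and at 5.15 and 4.96 in the Oct4med arrays (change -1.84, adjusted p = 2.91e-06). EREG, an EGFR ligand, was at 7.17, 7.09, 7.47 and 6.80 against 5.49 and 5.69 (change -1.54, adjusted p = 3.72e-05). The Oct4med arrays of both genes lay over 1 below the lowest Oct4low array. In Oct4hi BCCs EREG was at 5.60, a difference from Oct4med BCCs of -0.01 (adjusted p = 0.971), and MAP3K8 at 6.27. The dimmer probe sets of these genes moved less, with MAP3K8 at -0.47 (adjusted p = 0.0224) and EREG at -0.12 (adjusted p = 0.484).

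Phosphatases of MAP kinases fell by a smaller amount: DUSP10, which acts on JNK and p38 (-0.83), and those that ERK induces and that switch it off again, DUSP5 (-0.63), DUSP6 (-0.47) and DUSP4 (-0.35). So did SPRY2, a sprouty inhibitor of receptor signaling (-0.36). EGFR itself rose by 0.36 (adjusted p = 0.0207), from 5.79 ± 0.06 to 6.15 ± 0.21 on its brightest probe set. Its other tested probe sets changed by 0.06, 0.13 and 0.07 and did not pass. The call was lost without _x_at and _s_at probe sets. It was also lost without Oct4med replicate 1 (change 0.21) or Oct4low replicate 2 (adjusted p = 0.0538). The same arrays decided DUSP4 (0.273 and 0.0598), and Oct4med replicate 2 decided SPRY2 (0.0507). Other ligands did not pass, such as HBEGF, heparin-binding EGF (0.01, 95% interval -0.30 to 0.32), and TGFA (-0.18).

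The ID genes had some of the largest falls of the comparison. ID1 was at 11.45, 11.47, 11.60 and 11.62 in the Oct4low arrays and at 9.83 and 9.86 in the Oct4med arrays, which is 3.24-fold lower (change -1.70, SE 0.08, adjusted p = 1.44e-07). ID3 was between 10.52 and 10.67 and then at 8.87 in both Oct4med arrays (-1.71, adjusted p = 1.08e-07). ID2 was between 8.13 and 8.43 and at 6.98 and 7.12 (-1.27, adjusted p = 3.84e-05). In all 3 the subsets were far apart and the Oct4med replicates close together. In Oct4hi BCCs these genes stood at 11.44, 10.12 and 8.88, and the differences of Oct4med BCCs from ID1 (-1.59), ID3 (-1.25) and ID2 (-1.82) there each passed the test. The middle gate thus had the lowest level of all 3 ID genes, and not a level between the other subsets.

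Of the 10 tested ID proteins, related repressors and their E protein partners, 8 fell and none rose, with a median of -0.57. BHLHE40, a repressor of the clock, fell by 0.56, HES4, a repressor of the HES family, by 0.63, and HES1, the main Notch effector, by 0.32, while HEY1 (-0.11) and the E protein TCF3 (0.10) did not pass. In the wider list of TGFβ, activin and BMP genes, 32 were tested, 10 fell and 2 rose, with a median of -0.13, and without Oct4med replicate 2, 6 fell and none rose. Among its ligands, BMP4 fell by 0.45 and INHBB, an activin subunit, by 0.77, whereas TGFB1 (-0.12), TGFB2 (-0.13, 95% interval -0.33 to 0.07) and INHBA (0.01, -0.19 to 0.21) did not pass. A dim probe set of TGFB2 rose from 5.44 ± 0.32 to 6.59 ± 0.57 (1.16, adjusted p = 0.0225), and 3 others of it did not pass. Among its receptors, TGFBR2 fell by 0.33, and TGFBR1, the type I receptor, was at 6.90, 7.49, 7.27 and 6.97 in the Oct4low arrays and at 5.23 and 5.06 in the Oct4med arrays (-2.01, adjusted p = 2.82e-05). TGFBR1 stands on 1 tested probe set. Another probe set of it, left out as dim, was at 4.37 in Oct4low and 4.25 in Oct4med BCCs (-0.12). Of the targets and inhibitors, SMAD7, which blocks the type I receptor, fell by 0.67 and TGIF2, a corepressor of SMADs, rose by 0.52, with 1 Oct4med array at 7.52 and the other at 8.05. The calls of TGIF2 (adjusted p = 0.183) and BMP4 (0.0548) were lost without Oct4med replicate 2, and those of HES1 (0.0975 and 0.0621) and TGFBR2 (0.0582 and 0.0577) without either Oct4med array. The mean over the probe sets of TGFBR2 changed by 0.01.

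SNAI2, the zinc finger repressor also called Slug, was at 10.64, 10.67, 10.76 and 10.57 in the Oct4low arrays and at 9.03 and 9.10 in the Oct4med arrays, 3.01-fold lower (change -1.59, adjusted p = 2.21e-07). It was at 10.83 in Oct4hi BCCs, from which Oct4med BCCs differed by -1.76 (adjusted p = 7.33e-08). Its relatives among the factors of epithelial-mesenchymal transition (EMT) did not pass, with SNAI1 at -0.28 (95% interval -0.63 to 0.06) and ZEB1 at 0.22 (-0.13 to 0.57). SOX9, a factor of mammary progenitors, fell by 0.74 and SOX4, a factor that TGFβ induces, by 0.55. FN1, the fibronectin of the matrix, fell from 12.72 ± 0.01 to 11.91 ± 0.07 (adjusted p = 3.34e-05), and 4 bright probe sets of it changed by -0.83 to -0.79. Of 15 tested EMT and mesenchymal genes, 7 fell and none rose. In this list SNAI2 had its lowest level in Oct4med BCCs, and FN1 (11.27) and SOX4 (8.03) had theirs in Oct4hi BCCs.

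**Figure D3:**
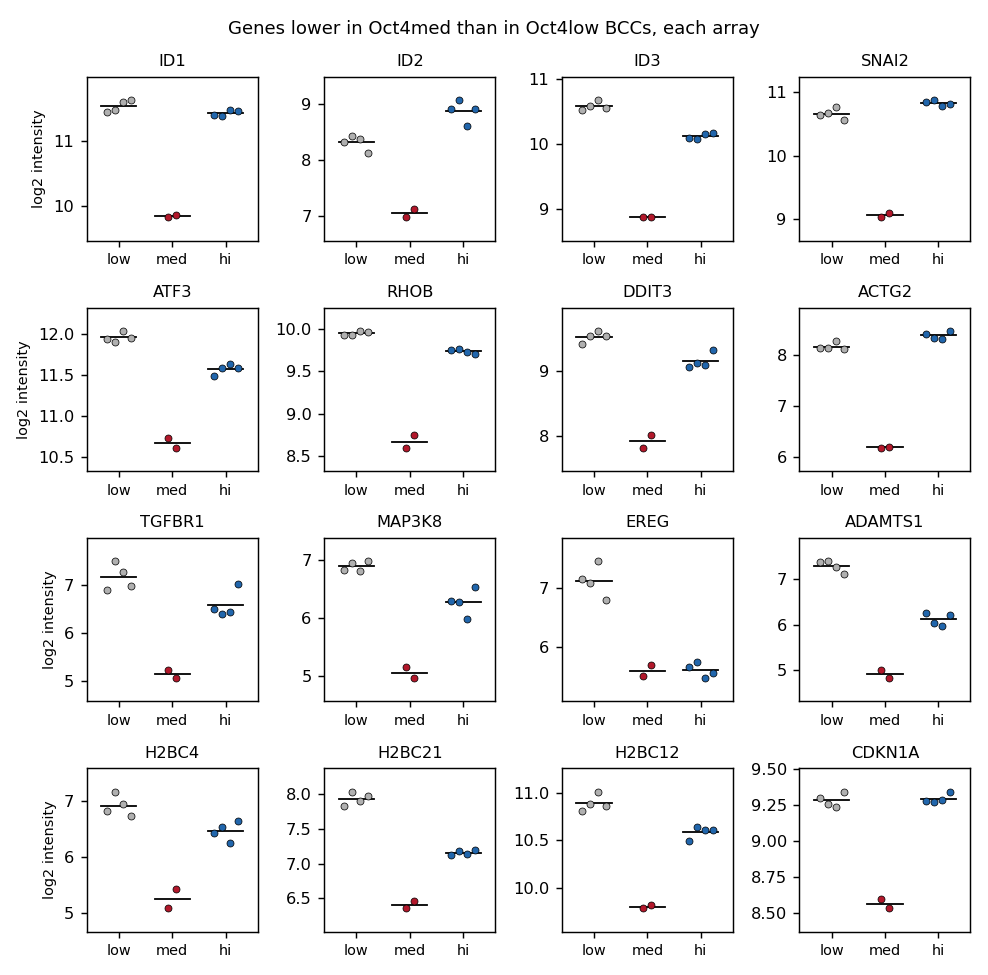
Log2 intensity (vertical) of 16 genes that fell from Oct4low to Oct4med BCCs, in each array of Oct4low (grey), Oct4med (red) and Oct4hi BCCs (blue), with a bar at each mean and a scale of its own per gene. The 2 Oct4med arrays lie below all 4 Oct4low arrays in every panel; in EREG they lie among the Oct4hi arrays, while ID1, SNAI2, ACTG2 and CDKN1A have Oct4hi arrays near or above the Oct4low arrays.

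Clustered histone genes, of which the array sees transcripts with a poly(A) tail, fell in part. Of 25 in the table, 17 were tested and 7 fell, namely H2BC4 (-1.67), H2BC21 (-1.53), H2BC12 (-1.09), H2BC5 (-1.07), H2BC9 (-0.87), H2BC6 (-0.77) and H2AC6, which was 2.3-fold lower. None rose, and the median over the 17 was -0.22. H2BC21, a gene for histone H2B, was at 7.83, 8.04, 7.91 and 7.98 in the Oct4low and at 6.35 and 6.46 in the Oct4med arrays, and H2BC12 at 10.81, 10.89, 11.01 and 10.87 against 9.78 and 9.82. The subsets were apart in both. All of the fallen genes encode H2A or H2B, while the linker histones H1-2 (-0.28) and H1-4 (0.37) and the H3 genes H3C2 (0.03) and H3C6 (0.24) did not pass. Without _x_at and _s_at probe sets, which can match several of these near-identical genes, only 2 falls were left among the members still tested. Transcripts of closely related members can share a probe set, so that which member changed is uncertain.

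The promoters of the fallen histone genes are shown for the octamer that POU proteins bind. ATGCAAAT, searched on both strands, was in 6 of the 7 promoters of the fallen members and in 10 of all 17, against 1.8% of all promoters. It was also in H2BC3, H2AC4, H2AC14 and H2AC17, which did not pass, and not in H2BC5, which fell. All 10 promoters with it belong to H2A or H2B genes, and no tested H1 or H3 gene holds it. The fallen members all encode H2A or H2B, so that their share follows in part from that class. The shorter CCAAT box was in 17 of 17 and in 35.7% of all promoters. Each stretch is 5′ to 3′ on the strand of the gene, upstream of the start in GRCh38.p14, with the octamer (or its reverse complement) in capitals.
H2BC4, chr6:26124012-26124089, minus strand: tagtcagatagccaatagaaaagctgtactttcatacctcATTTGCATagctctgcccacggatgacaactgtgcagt
H2AC6, chr6:26124002-26124079, plus strand: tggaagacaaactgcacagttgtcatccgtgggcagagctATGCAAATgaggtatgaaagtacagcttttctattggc
H2BC21, chr1:149886691-149886768, minus strand: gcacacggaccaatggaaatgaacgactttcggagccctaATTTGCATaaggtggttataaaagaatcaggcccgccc
H2BC12, chr6:27146867-27146944, minus strand: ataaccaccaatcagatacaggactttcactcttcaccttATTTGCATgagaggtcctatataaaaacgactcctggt
H2BC9, chr6:26251525-26251602, plus strand: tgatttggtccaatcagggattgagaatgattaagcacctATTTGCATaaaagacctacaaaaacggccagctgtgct
H2BC6, chr6:26183613-26183690, plus strand: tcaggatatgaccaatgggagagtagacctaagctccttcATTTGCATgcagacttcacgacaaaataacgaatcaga
H2BC4 and H2AC6 are transcribed away from each other out of 1 shared promoter, so that these 6 promoters hold 5 distinct octamers. A match is a run of letters, and whether any POU protein was bound there was not measured.

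Genes for S-phase entry and DNA replication rose by small amounts in Oct4med BCCs. Of 62 listed, 41 were tested, 24 rose and none fell, against 5.68% of all genes that rose. The median was 0.29, and 39 of the 41 estimates were above 0. CCNE2, a cyclin of S-phase entry, was at 9.58, 9.43, 9.47 and 9.43 in the Oct4low and at 9.92 and 10.05 in the Oct4med arrays (change 0.51, adjusted p = 0.00254). MCM2, a subunit of the replicative helicase, was between 10.64 and 10.74 and at 11.05 and 11.03 (0.35), and TYMS, which makes thymidylate, between 10.58 and 10.77 and at 11.14 and 11.07 (0.41, adjusted p = 0.0059). The groups did not overlap in these 3 genes.

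The E2F factor E2F8 rose by 0.47, the kinase CDK2 by 0.43 and MCM10, which loads polymerase at the origin, by 0.36. GINS1 (-0.08) and ORC6 (-0.08), both origin proteins, were the 2 members with estimates below 0. The count of rises depended on the arrays and the fit more than its direction did: it was 12 without Oct4med replicate 1, 7 without replicate 2, 13 without Oct4low replicate 2, 11 when only these 6 arrays were fitted and 30 with the values quantile normalized again, and no member fell in any of these. MCM2 was at 10.67 in Oct4hi BCCs, 0.36 below the Oct4med BCCs, and CCNE2 at 9.79. Of the members named here and beside the sequences below, MCM10, MCM7, DTL and HELLS did not pass without Oct4med replicate 2 (changes 0.29, 0.27, 0.24 and 0.25). TYMS did not pass without Oct4med replicate 1 (0.38), nor CDK2 without either Oct4med array (0.33 and 0.53). HELLS was also lost without Oct4low replicate 2 or 4, and CDK2 without Oct4low replicate 2, 3 or 4.

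**Figure D4:**
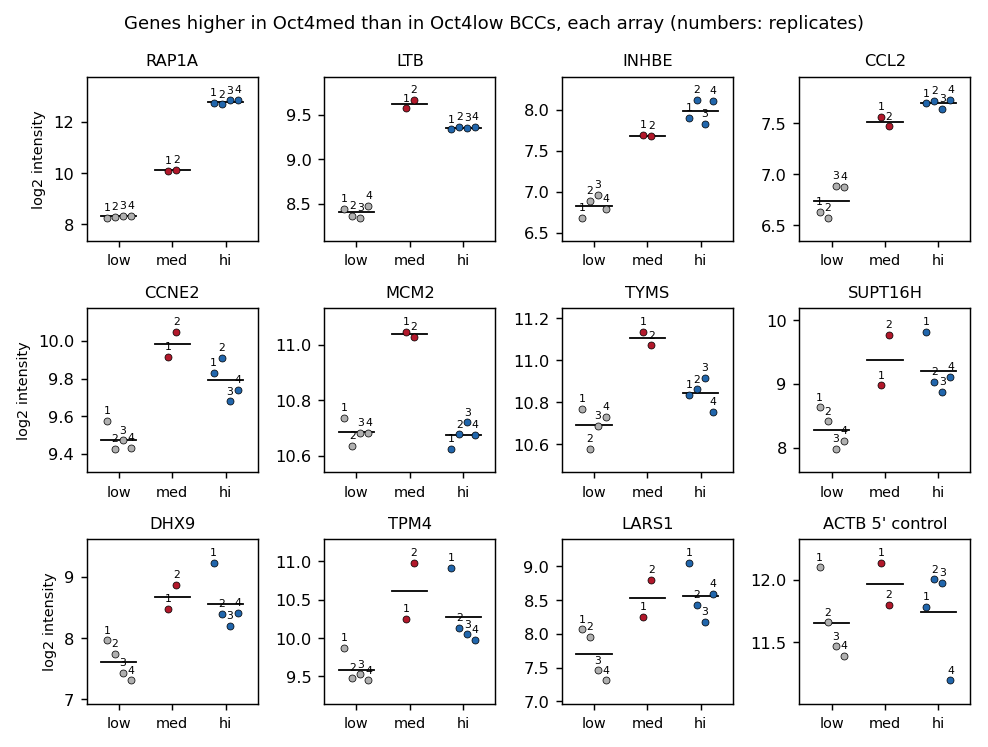
Log2 intensity (vertical) of 11 genes that rose from Oct4low to Oct4med BCCs, and of the control probe set for the 5′ end of ACTB, in each array of Oct4low (grey), Oct4med (red) and Oct4hi BCCs (blue), with replicate numbers and a bar at each mean. RAP1A, LTB and MCM2 have replicates close together; in SUPT16H, DHX9, TPM4 and LARS1 replicate 1 is the highest Oct4low array, as it is for the ACTB control (12.10).

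A stretch upstream of the start with an E2F element is shown for 3 of the risen members, since E2F factors drive this group at S-phase entry. The motif TTTNGCGC on either strand was in 17 of the 36 members with a promoter in the table, 8 of them among the 20 that rose, and in 1.83% of all promoters. GINS1 and ORC6, with estimates below 0, hold it too, so that the match and the rise did not go together in every member.
HELLS, chr10:94545682-94545749, plus strand: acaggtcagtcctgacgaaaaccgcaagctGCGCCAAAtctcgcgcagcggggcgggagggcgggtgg
MCM7, chr7:100101398-100101436, minus strand: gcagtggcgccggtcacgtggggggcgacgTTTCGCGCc
DTL, chr1:212035710-212035747, plus strand: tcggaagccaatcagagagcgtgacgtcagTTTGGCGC
HELLS, a chromatin remodeler, rose by 0.33, MCM7, another helicase subunit, by 0.31, and DTL, an adaptor of the ligase that clears replication factors, by 0.31. The dimmer tested probe sets of HELLS changed by 0.06, 0.12 and -0.03 and did not pass. Of the 28 tested genes of G2/M and mitosis, 3 rose and none fell, with a median of 0.12. ASPM, a protein of the spindle pole, rose by 0.48, TOP2A, the topoisomerase of dividing cells, by 0.38, and TTK, the kinase of the spindle checkpoint, by 0.35. None of the 3 passed without Oct4med replicate 2 (changes 0.285, 0.22 and 0.31). ASPM was also lost without Oct4low replicate 3 or 4, and TTK without Oct4med replicate 1 (0.40). CDKN1A, the cell cycle inhibitor p21, was between 9.23 and 9.34 in the Oct4low arrays and at 8.60 and 8.53 in the Oct4med arrays (change -0.72, adjusted p = 7.46e-05). Of 13 tested p53 targets, 5 fell and none rose, among them PLK2, a kinase induced by stress (-0.64), and GADD45A, a damage sensor (-0.41), while MDM2, the ligase that p53 induces to limit itself, did not pass (-0.04). With Oct4med replicate 1 left out, 2 of the 13 fell, and GADD45A was not among them (adjusted p = 0.056).

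Cytokine genes and NF-kB targets went in both directions. Of 24 tested, 7 rose and 8 fell. LTB, lymphotoxin beta, was at 8.44, 8.36, 8.35 and 8.48 in the Oct4low and at 9.57 and 9.66 in the Oct4med arrays, 2.31-fold higher (adjusted p = 1.57e-06), and at 9.35 in Oct4hi BCCs. CCL2, a chemokine for monocytes, rose from 6.74 ± 0.16 to 7.51 ± 0.06 (0.77, adjusted p = 0.000319), and TNFSF15, a TNF family ligand, and IL1A, an alarmin, rose by 0.62 and 0.50. The chemokine CXCL2 was at 11.74, 11.80, 11.79 and 11.78 and at 10.57 and 10.58 (2.29-fold lower, adjusted p = 1.2e-06), and TNFAIP3, the feedback inhibitor A20, was between 10.72 and 10.83 and at 9.68 and 9.81 (-1.05). NFKBIA, the inhibitor of NF-kB that its own target encodes, fell by 0.44, IL6 by 0.50 and CXCL8 by 0.47. TNF itself, dim at 4.86 and 5.14, did not pass (adjusted p = 0.0768). The number of rises was 4 without Oct4low replicate 1 or 2 or Oct4med replicate 1, and 3 without Oct4med replicate 2, and TNFSF15 was lost without either Oct4med array (adjusted p = 0.0819 and 0.054). IRF1, an interferon-induced factor, fell by 0.74, but of 17 tested interferon genes 2 rose (none without Oct4med replicate 2) and 2 fell.

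Stress genes of the endoplasmic reticulum and of hypoxia fell more often than they rose, as did all genes (11.7% fell and 5.68% rose). DDIT3, the factor CHOP, was at 9.41, 9.53, 9.61 and 9.53 in the Oct4low and at 7.82 and 8.01 in the Oct4med arrays, 3.05-fold lower (adjusted p = 1.20e-06). Of 23 tested genes of ATF4 and the unfolded protein response, 9 fell and 1 rose. The falls were mostly chaperones and sensors of the endoplasmic reticulum, such as DNAJC3 (-0.61) and HSPA5, the chaperone BiP (-0.39). The dimmer tested probe sets of DNAJC3 changed by 0.20 and -0.24 and did not pass, nor did the mean over its probe sets. ATF4 targets of amino acid supply did not pass, with ASNS, asparagine synthetase, at 0.09 and PSAT1, of serine synthesis, at 0.35. GDF15, a secreted stress factor, rose by 0.38. With the values quantile normalized again, 5 rose and 6 fell, so that the direction of the list depends on the scaling. Of 21 tested genes of hypoxia and glycolysis, 6 fell and none rose. ADM, adrenomedullin, fell by 0.76, PFKFB3, which drives glycolysis, by 0.57, and VEGFA, the angiogenic factor, by 0.28, while the glycolytic enzymes ENO1 (0.27) and, on a dim probe set, PGK1 (0.20) did not pass. Without either Oct4med array 3 of these 6 falls were left, and the methods' t-test gave 1. VEGFA was lost without either of them (changes -0.24 and -0.32), as was GDF15 (0.375 and 0.385). VEGFA was also lost without Oct4low replicate 2, 3 or 4 and without any single Oct4hi array. With Oct4med replicate 1 left out, 5 genes of the unfolded protein response fell, DNAJC3 not among them (0.218).

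Contractile, matrix and secreted proteins changed member by member. ACTG2, the smooth muscle actin, was at 8.14, 8.14, 8.28 and 8.13 in the Oct4low and at 6.19 and 6.20 in the Oct4med arrays, 3.94-fold lower (adjusted p = 1.00e-07), and at 8.39 in Oct4hi BCCs. TAGLN, transgelin, fell by 0.90 and MYL9, a myosin light chain, by 0.48. In contrast TPM4, a tropomyosin, rose by 1.03 on its brightest probe set, and another probe set of it changed by 0.20 (adjusted p = 0.305). Of 18 tested contractile genes and targets of SRF or YAP, 6 fell and 2 rose (none without Oct4med replicate 2). ADAMTS1, a secreted metalloprotease, had the largest fall of all genes that the rule named, from 7.37, 7.38, 7.26 and 7.11 to 5.02 and 4.83 (-2.36, adjusted p = 1.10e-07). Its Oct4med arrays lay below the array medians, where the background limits how exactly a fall is measured. TIMP1, an inhibitor of metalloproteases, fell by 0.43 and MMP9, a gelatinase, rose by 0.43. Of 21 tested collagens and laminins 6 fell and 1 rose, but without Oct4med replicate 1 none fell, and 3 fell without Oct4med replicate 2 or Oct4low replicate 2 or 4. The guidance cues NTN4, a netrin (-0.94), and SEMA3C, a semaphorin (-0.66), fell, and of the 33 tested guidance genes 4 fell and 4 rose (none without Oct4med replicate 2). Of the integrin subunits, 1 of 14 tested passed.

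Probe sets without a gene symbol were frequent among the falls. Of the 2458 tested probe sets with no symbol, 29.3% were lower and 2.6% higher, against 12.3% and 5.77% of the 10915 with 1 symbol. They made up 17.7% of all tested probe sets, 33.5% of the lower ones and 56.6% (224 of 396) of those lower by over 2-fold. Their median level in Oct4low BCCs was 5.96, against 6.55 for those with a symbol. These probe sets are named by the array annotation only, and where they lie relative to genes is not analysed here.

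**Figure D5:**
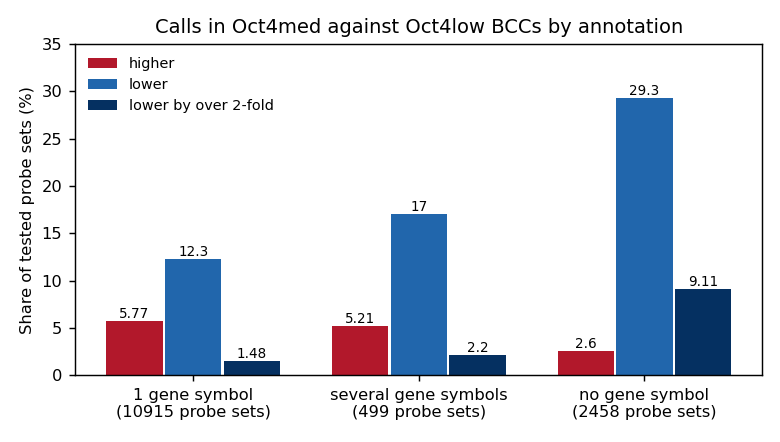
Share of tested probe sets (vertical, %) that rose (red), fell (blue) or fell by over 2-fold (dark blue) from Oct4low to Oct4med BCCs, by whether the array annotation gives the probe set 1, several or no gene symbol (horizontal, with the number tested). Probe sets without a symbol were lower in 29.3% and by over 2-fold in 9.11%, those with 1 symbol in 12.3% and 1.48%.

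Of the 368 tested long non-coding and antisense transcripts, 43 fell and 13 rose, and 11.7% of all genes fell. When Oct4med replicate 1 was left out, 17 of them fell and 1 rose, and without Oct4low replicate 2, 28 fell. RUNX1-IT1, a transcript from an intron of RUNX1, was at 6.61, 7.02, 6.74 and 6.76 in the Oct4low and at 4.82 and 5.14 in the Oct4med arrays (-1.80, adjusted p = 3.52e-05). NPTN-IT1, from an intron of NPTN, fell by 1.70 and CYTOR, a cytoskeleton regulator RNA, by 1.77. Among protein-coding genes with the largest falls were CREB5, a CREB-family factor (-2.20), KYNU, an enzyme of tryptophan breakdown (-1.86), TASOR2, a paralog of a silencing factor (-1.76), PRKRA, an activator of the kinase PKR (-1.71), and TMED10, a cargo receptor of the secretory pathway (-1.69). CREB5 was at 8.24, 8.77, 8.45 and 8.44 and at 6.18 and 6.37 on its brightest probe set, and 3 dimmer ones changed by -0.51 to -0.37, each past the test. PRKRA and TMED10 were dim, with Oct4med arrays below the array medians. PRKRA passed the filter on dim probe sets through the Oct4low arrays alone, so that its fall follows in part from that filter, as for 105 of the probe sets tested, of which 58 were called. Of the 102 genes lower by over 2-fold, 30 had another tested probe set, which passed in the same direction in 22 and in the opposite direction in none. The others stand on 1 tested probe set each. RPS27, a ribosomal protein gene, was represented by 1 probe set at only 5.73, which fell to 4.32, and of 15 tested ribosomal protein genes 2 fell.

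Genes of splicing and RNA binding passed in both directions. Of 42 tested, 14 fell (33.3%) and 5 rose (11.9%), against 11.7% and 5.68% of all genes, with a median of -0.09. SRSF4, a splicing factor with serine and arginine repeats, was at 7.63, 8.03, 7.99 and 7.66 and at 6.49 and 6.96 (-1.10, adjusted p = 0.000933), and HNRNPM, an RNA-binding protein of the nucleus, fell by 0.80. DHX9, an RNA helicase, rose from 7.96, 7.75, 7.44 and 7.31 to 8.48 and 8.87 (1.06, adjusted p = 0.0118). Leaving out Oct4med replicate 1 left 5 falls, with HNRNPM lost (adjusted p = 0.139), and leaving out replicate 2 no rise.

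The 15 largest rises were of 2 kinds. RAP1A, a small GTPase of integrin activation, was at 8.27, 8.30, 8.34 and 8.33 in the Oct4low and at 10.08 and 10.12 in the Oct4med arrays, 3.46-fold higher (adjusted p = 1.00e-07), and at 12.78 in Oct4hi BCCs, a step in order of the reporter. A second RAP1A probe set rose by 1.54 (adjusted p = 6.51e-07), but the third changed by 0.05 (adjusted p = 0.76), at 7.25 in Oct4med BCCs, so that not every probe set of the gene rose. The paper states that neither PCR nor western blot bore out the array difference of RAP1A, the largest it found. LTB and INHBE, an activin subunit of the stress response (0.85, with 7.70 and 7.68 in the Oct4med arrays), also had replicates close together.

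The others spread widely. SUPT16H, a histone chaperone, was at 8.63, 8.41, 7.98 and 8.11 in the Oct4low and at 8.97 and 9.77 in the Oct4med arrays (1.09, adjusted p = 0.0145). LARS1, a leucine tRNA synthetase, was at 8.06, 7.95, 7.46 and 7.31 and at 8.25 and 8.80 (0.83, adjusted p = 0.0374). PHLDB2, which anchors microtubules at the cell cortex, rose by 1.07 (adjusted p = 0.0393), while another probe set of it fell by 0.59 (adjusted p = 0.0108). Of the 15, 14 had Oct4med replicate 2 above replicate 1, and 11 had Oct4low replicate 1 as the highest Oct4low array. Some control probe sets for the 5′ end of transcripts shared part of this order. That for ACTB was at 12.10, 11.66, 11.47 and 11.39 in the Oct4low and at 12.14 and 11.80 in the Oct4med arrays, where replicate 1 was the higher. That for the spiked dap transcript was at 6.07, 5.53, 5.35 and 5.35 and at 5.80 and 6.29. The mean differences between the subsets were 0.31 and 0.47 (two-sided exact permutation test, p = 0.267 and 0.2, where 2 against 4 arrays cannot go below 0.0667 and so cannot pass), and their part in the rises was not tested. Without Oct4med replicate 2, DHX9, SUPT16H, PHLDB2, TPM4, LARS1, FAM111B (0.95), PPFIBP1 (0.93), ZNF480 (0.90), GNG12 (0.87), ESCO2 (0.87) and ZFR (0.85) no longer passed, whereas RAP1A, LTB, INHBE and LYPLA1 (0.85) did. PHLDB2 was also lost without Oct4low replicate 2, 3 or 4 or Oct4hi replicate 2. LARS1 and ZFR were also lost without Oct4low replicate 3 or 4, and PPFIBP1 without Oct4low replicate 3. FAM111B is a protease of replicating cells and ESCO2 acetylates cohesin in S phase.

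Of 10 tested pluripotency genes, 3 fell and 1 rose. KLF4 was at 11.23, 11.26, 11.32 and 11.26 in the Oct4low and at 10.56 and 10.63 in the Oct4med arrays (-0.67, adjusted p = 0.000113), and KLF5 fell by 0.63 and MYC as above. PODXL, a sialomucin of stem cells, rose by 0.26, near the threshold (adjusted p = 0.0411). That call was lost without either Oct4med array (changes 0.24 and 0.29), and without Oct4low or Oct4hi replicate 1, 2 or 4. The embryonic factor SALL4 was dim (5.99 and 6.27) and did not pass. Of 8 tested surface markers of breast cancer stem cells, CD24, which such cells are said to lack, was the member that fell (-0.32, adjusted p = 0.0342). Its call was lost without either Oct4med array (changes -0.29 and -0.36) and without Oct4low replicate 1, 2 or 3. CD44 (-0.10, 95% interval -0.27 to 0.08, with dimmer probe sets that fell as given above), ITGA6 (0.23, -0.11 to 0.58) and PROCR (-0.23, -0.45 to 0.00) did not pass. Of 16 tested epithelial genes, GJB2, a gap junction protein, rose by 0.46 (adjusted p = 0.0184, and 0.066 and 0.0903 without either Oct4med array) and the others did not pass, with EPCAM at -0.03.

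Among the genes that the study named for its subsets, 45 were tested, and 5 were higher and 16 lower in Oct4med BCCs. They were chosen by the study on these arrays and are no independent evidence. PADI4, which citrullinates histones, was between 7.99 and 8.28 in the Oct4low arrays and at 6.86 and 6.85 in the Oct4med arrays (-1.26), and EDIL3, a secreted integrin ligand, fell by 0.83, FAM20C, a secretory kinase, by 0.65 and SLCO4A1, an anion transporter, by 0.59. Each was lower again in Oct4hi BCCs, at 6.29, 10.06, 9.46 and 7.11. TENM2, a teneurin adhesion protein, did not follow that order, with 9.16 in the lowest, 8.34 in the middle and 10.72 in the highest gate. TMEM98, a membrane protein, rose from 6.25 ± 0.10 to 6.62 ± 0.04 (0.38, adjusted p = 0.012) and differed by -1.07 from Oct4hi BCCs, with the rise lost without Oct4med replicate 2 (adjusted p = 0.0649). The adhesion receptor ADGRG2 (-0.12, 95% interval -0.34 to 0.10, below the array medians in both subsets), the cadherin FAT4 (-0.28, adjusted p = 0.104) and DHRS2, a dehydrogenase at 6.69 and 6.76, did not pass.

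Among large gene families, zinc finger genes and solute carriers fell less often than all genes, of which 11.7% fell and 5.68% rose. Of 216 tested zinc finger genes named ZNF, 15 rose (6.94%) and 17 fell (7.87%), and of 146 solute carriers 9 rose (6.16%) and 10 fell (6.85%). Leaving out Oct4med replicate 1, 7 zinc fingers and 4 solute carriers fell, and without replicate 2, 5 zinc fingers rose. The zinc fingers turned to 41 higher and 16 lower when the values were quantile normalized again. Of 20 tested genes each of the mitochondrial ribosome and the respiratory chain, 1 and 3 fell, and of 12 proteasome genes 1 fell. Of 29 tested MMP and ADAM proteases and their inhibitors 2 rose and 3 fell, of 8 genes of cholesterol synthesis 1 rose and none fell, and none of 3 tested histone variants passed. The 28S ribosomal RNA, a control, was at 13.60 ± 0.07 in Oct4low and 12.70 ± 0.09 in Oct4med BCCs on its brightest probe set, that for the 5′ end (exact permutation test, p = 0.0667, the smallest possible). The 18S control was at 12.84 ± 0.09 and 12.98 ± 0.25. By chromosome, the median change of genes ran from -0.08 on chromosome 15 to 0.08 on chromosome 3.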

How the data were processed

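Values are deposited log2 intensities. Per the labels and the paper's methods, the authors background-corrected and summarized the arrays by RMA in BRB-Array Tools. By the paper they had removed probe sets near background and those changing under 1.2-fold in all but 20% of the samples. In the deposited values, all 25750 lay 1.2-fold from their median in 1 array or more, but only 11556 in 2 or more. The stated rule for variation was therefore not borne out. Their t-test is an alternative here. Members and gene lists were chosen with earlier results of these data known. The 13872 non-control probe sets at or above the array median in at least 2 of 10 arrays were fitted with limma 3.58.1 in R 4.3.3 (group means of Oct4low, Oct4med and Oct4hi BCCs), with Benjamini-Hochberg adjustment over all of them and a threshold of 0.05. Intervals are 95%. Intensities carry no read depth, so that the number of arrays limits the precision. The labels call the replicates biological, and the paper gives 4 experiments, with Oct4med BCCs in duplicate. The array annotation gave 18683 probe sets 1 gene, 799 several and 6268 none, and of the named ones 18654 matched the RefSeq gene table. Named genes are the 15 largest rises and falls without overlap of the arrays, up to 4 members per list and genes named by the study; others were chosen after their values were seen. Promoters are RefSeq sequences (GRCh38.p14), 250 bases before to 50 after the start. The fit was tested on simulated data. Alternatives were other filters, scalings, weights, fits and tests, and leaving out each array.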

Additional observations from a re-analysis of the deposited data

Results flagged for a closer look

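In 8 of the 164 genes named and tested in this way, 1 of the 4 Oct4low arrays stood far from the other 3 (Dixon's test), and chance flags about 1 in 20 groups, so that the count is near what chance gives. Oct4low replicate 3 was the highest for ACTG2 (8.279 against 8.14 for the next), HES1 (13.097 against 12.93) and KLF2 (9.3712 against 9.11), and the lowest for ZEB1 (9.1081 against 9.46). Oct4low replicate 1 was the lowest for INHBB (9.7753 against 9.87). Oct4low replicate 4 was the highest for TMED10 (5.7971 against 5.61) and the lowest for KLF5 (8.5392 against 8.58). Oct4low replicate 2 was the highest for MAFF (13.164 against 13.09). In ZEB1 the Oct4low and Oct4med arrays overlapped, and in the other 7 genes they did not.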

How the results depend on the processing

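No probe set called in the fit of all 10 arrays changed direction under any alternative run. The number higher in Oct4med BCCs (720) was 463 without a filter, 1385 with values quantile normalized again, 273 with array weights, 435 with the 2 subsets fitted alone, 163 by the methods' t-test and 388 without _x_at and _s_at probe sets, and 371 to 711 without single arrays. The number lower (2145) was 948 by the methods' t-test and 1024 to 2144 without single arrays. The 13 probe sets higher by over 2-fold were 8 with array weights, 4 by the methods' t-test, 6 without _x_at and _s_at probe sets and 4 (without Oct4med replicate 2) to 41 (without replicate 1) without single arrays, and the 396 lower by over 2-fold were 297 to 502. With the replicate number as a block, 177 were higher, 1376 lower and 4 higher by over 2-fold. The labels do not say that a number joins samples, and the deviations of the same-numbered Oct4low and Oct4med arrays had correlations of -0.0005 and 0.19, so that the block is given as an alternative and not as pairing. The list medians that changed sign were those of pluripotency genes (0.13, and -0.1026 without a filter, -0.2799 with the stricter and -0.0247 with the variation filter), of NF-kB targets (0.16, and -0.2615 with the stricter filter) and of cholesterol synthesis (0.16, and -0.0007 with the variation filter and also without _x_at and _s_at probe sets). The mean over its probe sets turned TGFBR2 to 0.0138. Filters test fewer genes, and the other causes were not tested. Values below the array medians, as for ADAMTS1, PRKRA and TMED10 in Oct4med BCCs, are limited by background.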
